A study of Mus musculus with 6 samples.

Results

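The 37 genes described here encode the extracellular side of Wnt signaling, taken from the 55416 genes of the deposited table by their names. They are 19 Wnt ligands, 10 Frizzled receptors, 4 secreted Frizzled-related proteins (*Sfrp1*, *Sfrp2*, *Sfrp4* and *Sfrp5*) and 4 Dickkopf proteins (*Dkk1* to *Dkk4*). They were measured in satellite cells (SCs), the stem cells of skeletal muscle, from wild-type (WT) and lactoferrin-knockout (*Ltf*-KO) mice. There were 3 libraries of each genotype. The *Ltf*-KO mice carry a systemic CRISPR-Cas9 deletion within *Ltf* made in C57/BL6N zygotes, and mice in the study were 8 to 10 weeks old unless stated otherwise. SCs of both genotypes were sorted from leg muscle as Sca1-, CD11b-, CD34+ and α7-integrin+ cells. They were grown for 4 days on Matrigel in medium with fetal bovine serum, chicken embryo extract and basic fibroblast growth factor. Nothing in the sources used here says whether the 3 libraries of a genotype came from separate mice, so every p-value measures only the spread between these samples, which may be technical.

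Wnt proteins are secreted glycoproteins that carry a lipid, added by the acyltransferase Porcn, and reach the cell surface with the carrier Wls. They bind the cysteine-rich domain of Frizzled receptors, and with the co-receptors Lrp5 and Lrp6 they stabilize β-catenin, while other receptor combinations act on cell polarity and movement without β-catenin. Sfrp proteins hold a domain like that of Frizzled and bind Wnt outside the cell, and Dickkopf proteins block Lrp5 and Lrp6. In muscle, Wnt7a acting through Fzd7 is known for driving the symmetric expansion of SCs, and β-catenin signaling is linked to the step from proliferation to differentiation.

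The unit was inferred from the values to be TPM, in which reads are divided by transcript length and scaled to a common total. Levels are compared between genes on that reading. A common total alone does not show division by length, and the depth of the libraries is unknown. The 6 libraries summed to between 993650 and 994356 TPM, and 12828 to 12951 genes reached 1 TPM. All 9 myogenic markers were tested and high, with *Myod1*, the myogenic determination factor, between 748 and 816 TPM and *Pax7*, the SC transcription factor, between 36.6 and 43.3 TPM. The targeted gene *Ltf* was listed at 0.12, 0.02 and 0.02 TPM in WT and at 0.02, 0.03 and 0 TPM in *Ltf*-KO libraries, so its level does not tell the genotypes apart.

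Part of the family was expressed. Averaged over all 6 libraries, 17 of the 37 genes reached 1 TPM, where 23.4% of all 55416 genes did. They were 9 of the 10 Frizzled receptors, 6 of the 19 Wnt ligands, 2 of the 4 Sfrp genes and 0 of the 4 Dickkopf genes. Of these 17 genes, 14 were at 1 TPM or more in every library. The exceptions were *Sfrp1*, *Wnt5b* and *Fzd9*. The gap at the threshold was wide, since the lowest gene inside it, *Fzd9*, had a mean of 1.14 TPM and the highest gene outside it, *Wnt4*, had a mean of 0.46 TPM. None of the other 20 genes exceeded 0.57 TPM in any library, and *Wnt8a*, *Wnt8b* and *Dkk4* were listed at 0 in all 6.

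**Figure D1:**
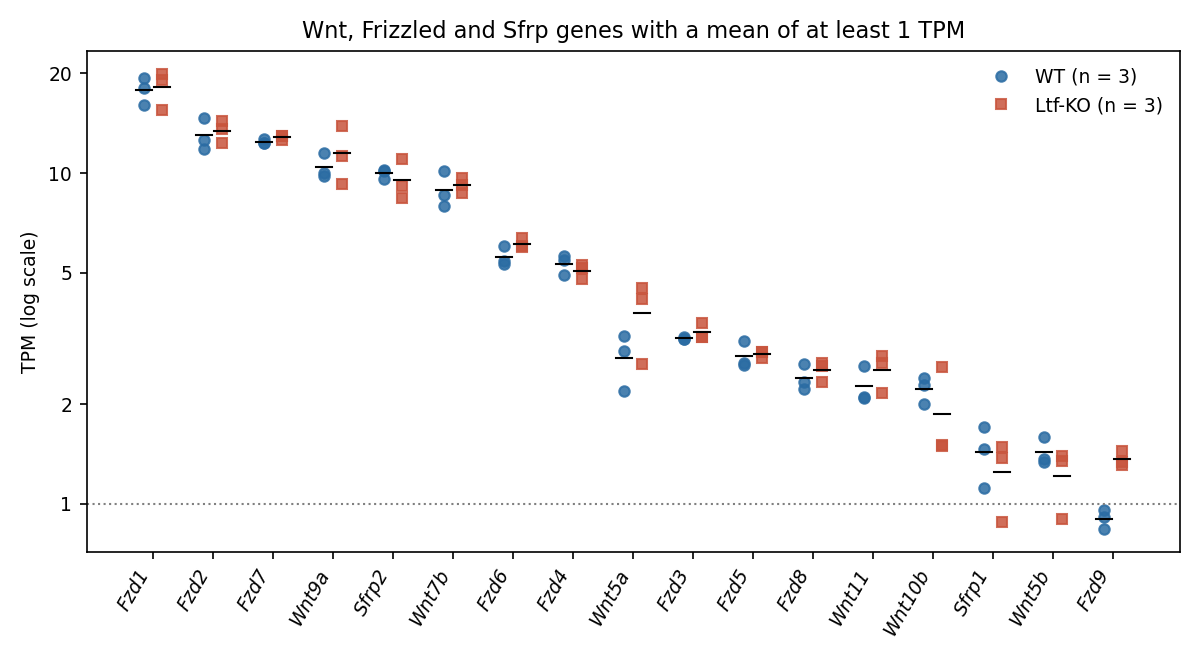
TPM (log axis) of the 17 genes that averaged 1 TPM or more, ordered by mean, with WT libraries as circles, *Ltf*-KO libraries as squares and genotype means as black bars. The dotted line marks 1 TPM, and *Fzd9* at the right is the gene whose 3 WT points (0.84 to 0.96 TPM) lie below its 3 *Ltf*-KO points (1.31 to 1.45 TPM).

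*Fzd1*, *Wnt9a* and *Sfrp2* were the most abundant receptor, ligand and inhibitor. The sequences just upstream of their starts are shown to place them, since they head the 3 roles. They are RefSeq sequences of GRCm38.p6, read 5′ to 3′ on the strand of the gene and ending at or before the RefSeq start, with matches to the TCF/LEF core CTTTGA (or TCAAAG on the other strand) and to the E-box CAGCTG in capitals. *Fzd1* is on the minus strand at chr5:4758217-4758466, *Wnt9a* on the plus strand at chr11:59306680-59306927 and *Sfrp2* on the plus strand at chr3:83766071-83766320.
Fzd1: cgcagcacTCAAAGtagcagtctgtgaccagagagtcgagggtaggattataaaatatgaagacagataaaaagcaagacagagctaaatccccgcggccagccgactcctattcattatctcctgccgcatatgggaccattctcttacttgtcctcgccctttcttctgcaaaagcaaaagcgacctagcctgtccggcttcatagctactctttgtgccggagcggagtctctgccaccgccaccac
Wnt9a: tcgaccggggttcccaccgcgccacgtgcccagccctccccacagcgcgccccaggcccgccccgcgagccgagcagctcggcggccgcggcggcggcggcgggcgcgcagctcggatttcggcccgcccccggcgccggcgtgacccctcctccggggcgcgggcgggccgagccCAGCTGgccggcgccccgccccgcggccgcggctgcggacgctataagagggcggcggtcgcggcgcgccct
Sfrp2: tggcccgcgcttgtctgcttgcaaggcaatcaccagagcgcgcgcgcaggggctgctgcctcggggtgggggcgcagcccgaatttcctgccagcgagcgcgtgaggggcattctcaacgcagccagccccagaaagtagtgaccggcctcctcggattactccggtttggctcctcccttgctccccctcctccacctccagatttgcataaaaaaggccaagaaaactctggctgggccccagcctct
TCF and LEF are the DNA-binding partners of β-catenin. CAGCTG is 1 form of the E-box, the motif bound by myogenic factors such as Myod1 and Myog, and other forms were not searched. The *Fzd1* window held 1 TCF/LEF core, the *Wnt9a* window held 1 CAGCTG, and the *Sfrp2* window held neither. For the counts, full windows of 250 bases were used, found for 25 of the 37 genes (28 windows). The *Wnt9a* sequence printed is 248 bases long, since the bases inside the GENCODE gene were left out. The TCF/LEF core was present in 14.3% of them and in 13.8% of all 32851 windows of that length. CAGCTG was present in 7.14% of them and in 13.0% of all windows. A match describes letters and not binding, and no window printed holds both of the motifs searched.

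Receptors were the most broadly expressed role. *Fzd1* was at 18.02, 16.06 and 19.35 TPM in WT and at 19.16, 19.98 and 15.48 TPM in *Ltf*-KO libraries. It was above *Fzd2* in all 6 libraries without overlap of their ranges. *Fzd2* was at 14.65, 11.85 and 12.59 TPM in WT and at 14.36, 13.57 and 12.35 TPM in *Ltf*-KO libraries. *Fzd7*, the receptor of Wnt7a on SCs, was at 12.33, 12.64 and 12.34 TPM in WT and at 12.90, 12.97 and 12.54 TPM in *Ltf*-KO libraries. The ranges of *Fzd2* and *Fzd7* overlapped, so these neighbours could not be ordered beyond their spread. *Fzd1*, *Fzd2* and *Fzd7* are closely related receptors, and *Fzd1* alone made up 24.8% to 29.9% of the summed Frizzled TPM of a library.

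A second tier of receptors followed. *Fzd6*, best known from planar cell polarity, ranged from 5.32 to 6.36 TPM, and *Fzd4*, also a receptor for the non-Wnt ligand norrin, from 4.79 to 5.61 TPM. Their ranges overlapped each other but not those of the receptors above or below them. *Fzd3*, *Fzd5* and *Fzd8* followed at 3.14 to 3.52, 2.63 to 3.11 and 2.22 to 2.66 TPM. *Fzd3* stood just clear of *Fzd5*, whereas *Fzd5* and *Fzd8* overlapped. *Fzd10* was the only Frizzled gene under a mean of 1 TPM, at 0.22 to 0.45 TPM.

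*Fzd9* was the lowest receptor that entered the test and the only one of the 17 genes to separate the genotypes completely. It was at 0.91, 0.96 and 0.84 TPM in WT and at 1.31, 1.45 and 1.34 TPM in *Ltf*-KO libraries. Every *Ltf*-KO library thus stood above every WT library. The means were 0.903 ± 0.0603 TPM (SD, n = 3) and 1.37 ± 0.0737 TPM (SD, n = 3), a ratio of 1.51. On the log2(TPM + 1) scale, which understates the change of a gene this low, the difference was 0.31 (standard error 0.14, 95% confidence interval -0.027 to 0.66) and the adjusted p by limma was 0.999. *Fzd9* therefore did not pass the test, and its unadjusted p was also above 0.05. It met the filter of a mean of 1 TPM only through its *Ltf*-KO libraries, as all 3 WT values were under 1 TPM. *Fzd9* is a gene of 1 exon on the minus strand of chromosome 5, from 135248938 to 135251230 in the GENCODE M21 annotation of GRCm38, and no other annotated gene overlaps it. Of all 12956 genes tested, 8.46% had libraries that did not overlap, 4.73% with *Ltf*-KO higher, and for the family this share was 5.88% (1 of 17, *Ltf*-KO higher).

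Markers of other cell types were set beside *Fzd9*. Of the 40 markers on all lists, 29 were tested. By limma, 1 of the 29 had an unadjusted p under 0.05, where 3.78% of all genes tested did. The libraries of 2 did not overlap between genotypes (*Cd68* and *Pdgfrb*), where 8.46% of all genes tested did not. *Cd68*, a macrophage marker, was lower in *Ltf*-KO (3.56 to 3.98 TPM in WT, 3.12 to 3.52 TPM in *Ltf*-KO libraries). *Pdgfrb*, a receptor of pericytes and fibroblasts, also separated the genotypes, at 3.73, 3.89 and 4.71 TPM in WT and 6.95, 7.51 and 4.80 TPM in *Ltf*-KO libraries (log2 difference 0.52, adjusted p = 0.999 by limma, unadjusted p under 0.05). Of the 6 markers of smooth muscle and pericytes, 3 were tested and *Pdgfrb* alone had an unadjusted p under 0.05. *Myh11*, *Rgs5* and *Kcnj8* of this list stayed at or under 0.62 TPM, and *Kcnj8* was listed at 0 in *Ltf*-KO replicate 3. *Cspg4*, also of this list, was at 30.8 to 41.1 TPM. *Rgs5*, under the filter and not tested, was at 0.12, 0.18 and 0.13 TPM in WT and 0.23, 0.39 and 0.46 TPM in *Ltf*-KO libraries, without overlap. It is named for this after its values were seen. Without the filter, the libraries of 6.67% of all genes did not overlap. The summed TPM of this list was 449 to 532 in WT and 499.8 to 630 in *Ltf*-KO libraries, most of it *Acta2*, which cultured myoblasts also express. The part of such cells in the *Fzd9* values was not tested. In bulk RNA, a different number of expressing cells and a different amount of RNA per cell cannot be told apart.

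Among the ligands, *Wnt9a* and *Wnt7b* were the most abundant. *Wnt9a*, known from joint and limb development, was at 9.80, 11.49 and 10.02 TPM in WT and at 11.23, 9.29 and 13.91 TPM in *Ltf*-KO libraries. The highest and the lowest library were both *Ltf*-KO. *Wnt7b*, a ligand able to signal through β-catenin, was at 10.16, 8.58 and 7.93 TPM in WT and at 9.21, 9.65 and 8.73 TPM in *Ltf*-KO libraries. *Wnt9a* held 29.3% to 44.0% of the summed Wnt TPM and *Wnt7b* held 27.6% to 35.6%. Their ranges overlapped, and *Wnt9a* was the higher of the pair in 4 of 6 libraries. *Wnt7a*, the paralog of *Wnt7b* known for its action on SCs, was listed at 0.04, 0.02 and 0.02 TPM in WT and 0.08, 0.19 and 0.08 TPM in *Ltf*-KO libraries, near the floor in both genotypes.

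*Wnt5a*, the best-known ligand of signaling without β-catenin, varied most among the 17 genes, with a coefficient of variation of 27.4% over the 6 libraries. It was at 2.19, 2.89 and 3.21 TPM in WT and at 4.15, 4.50 and 2.64 TPM in *Ltf*-KO libraries. *Ltf*-KO replicates 1 and 2 were above all WT libraries and *Ltf*-KO replicate 3 lay within the WT range. The means were 2.76 ± 0.522 TPM (SD, n = 3) and 3.76 ± 0.988 TPM (SD, n = 3). The log2 difference was 0.33 (standard error 0.19, 95% confidence interval -0.14 to 0.79, adjusted p = 0.999 by limma). Without *Ltf*-KO replicate 3 it was 0.51, with an unadjusted limma p under 0.05 and an adjusted p of 0.984.

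Some markers of other cell types, and not others, ordered the libraries as *Wnt5a* did. *Dcn*, which encodes the matrix proteoglycan decorin, was at 2.04, 2.89 and 5.24 TPM in WT and at 5.71, 6.83 and 2.82 TPM in *Ltf*-KO libraries. This placed the 6 libraries in the same order as *Wnt5a*, and *Wnt5a* was the only one of the 17 genes with that order, although *Fzd1* and *Fzd8* shared the 3 highest libraries with *Dcn*. Of the 8 fibroblast markers, 3 had this order (*Dcn*, *Pdgfra* and *Lum*) and a further gene, *Col1a1*, had the same 3 highest libraries. *Ly6a* was instead highest in *Ltf*-KO replicate 3 (3.21 TPM) and *Col3a1* in *Ltf*-KO replicate 1 (117.7 TPM). The 3 highest libraries of *Wnt5a* (*Ltf*-KO replicates 1 and 2 and WT replicate 3) were also those of 5 of 6 endothelial markers, such as *Cdh5* and *Pecam1*, 2 of 5 Schwann cell markers (*Sox10* and *S100b*), 1 of 6 smooth muscle and pericyte markers (*Cspg4*), 1 of 9 myogenic markers (*Myf5*) and 0 of 6 macrophage markers. The summed endothelial markers were 5.95 to 15.8 TPM in WT and 6.1 to 14.6 TPM in *Ltf*-KO libraries, and the summed Schwann cell markers 18.4 to 28.4 and 21.7 to 26.1 TPM. The summed fibroblast list, of which 6 of 8 genes were tested and 0 had an unadjusted p under 0.05, was 104 to 109.6 TPM in WT and 103 to 135 TPM in *Ltf*-KO libraries, and *Dpt* was listed at 0 in *Ltf*-KO replicate 3. Most of that sum was *Col3a1*. The orders were compared after the values were seen, and the share of all genes tested with such an order is not given. The part of any of these cells in the *Wnt5a* values was not tested.

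*Wnt9a* had its 3 highest libraries in common with *Myog*, the transcription factor that marks entry into differentiation. *Myog* was at 319, 410.3 and 293 TPM in WT and at 360.4, 266 and 508 TPM in *Ltf*-KO libraries. Both genes were highest in *Ltf*-KO replicate 3, followed by WT replicate 2 and *Ltf*-KO replicate 1, and both were lowest in *Ltf*-KO replicate 2. None of the other 16 genes shared its 3 highest libraries with *Myog*. Of the 9 myogenic markers 4 had these 3 libraries highest (*Myog*, *Des*, *Itga7* and *Megf10*), as did *Acta2* and *Erbb3* of the smooth muscle and Schwann cell lists. *Ltf*-KO replicates 2 and 3 were thus at opposite ends for *Myog* and *Wnt9a*, within a single genotype. This was also seen after the values were known and was not tested. The share of all genes tested with the same 3 highest libraries as *Myog* is not given.

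**Figure D2:**
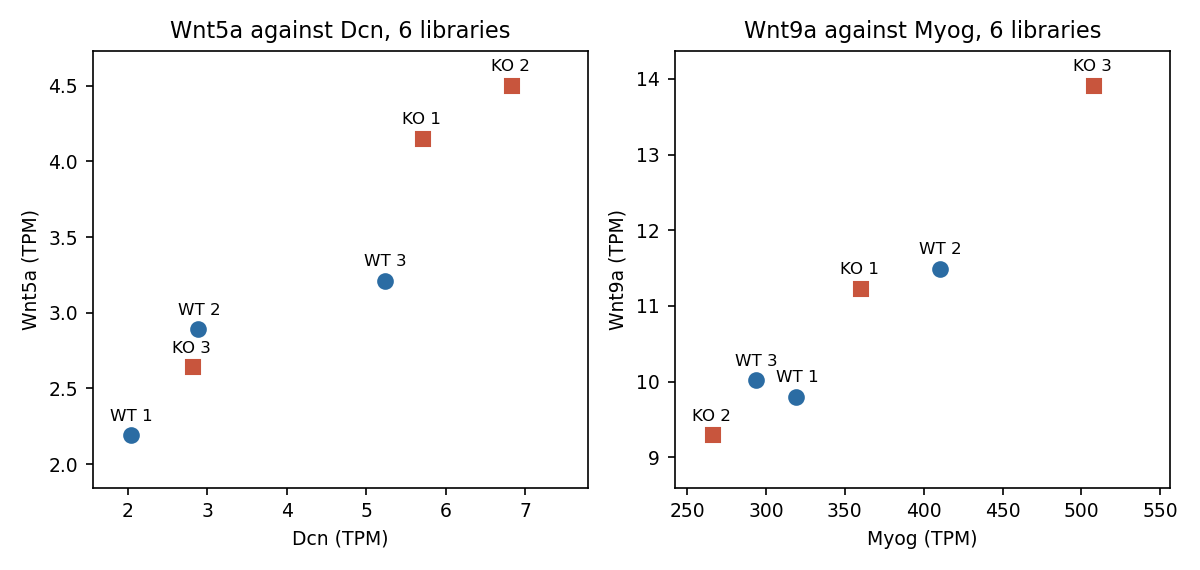
*Wnt5a* against *Dcn* (left) and *Wnt9a* against *Myog* (right), both axes in TPM, with 1 point per library (circles, WT; squares, *Ltf*-KO). *Ltf*-KO replicate 2 is at the upper right for *Wnt5a* (4.50 TPM) and at the lower left for *Wnt9a* (9.29 TPM).

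The lower ligands were *Wnt11*, *Wnt10b* and *Wnt5b*. *Wnt11*, a ligand of polarity and cell movement, was at 2.11, 2.09 and 2.62 TPM in WT and at 2.17, 2.79 and 2.66 TPM in *Ltf*-KO libraries. *Wnt10b*, known for keeping myoblasts from turning adipogenic, was at 2.28, 2.4 and 2 TPM in WT and at 1.51, 2.6 and 1.5 TPM in *Ltf*-KO libraries. *Ltf*-KO replicates 1 and 3 were below all WT libraries and *Ltf*-KO replicate 2 was above them. The log2 difference of *Wnt10b* was -0.19 (adjusted p = 0.999 by limma), and -0.36 without *Ltf*-KO replicate 2 (unadjusted p under 0.05, adjusted p = 0.98). *Wnt5b*, the paralog of *Wnt5a*, ranged from 0.90 to 1.59 TPM, with its lowest value in *Ltf*-KO replicate 3. In the annotation 8 of the 17 genes overlap another gene, *Wnt5b* with *Fbxl14* and *Sfrp2*, *Wnt7b*, *Fzd6*, *Wnt5a*, *Fzd3*, *Fzd5* and *Wnt11* with other annotated loci. Part of their reads could belong to those genes, and the sources used here do not state whether counting used strand.

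Other Wnt genes stayed low. *Wnt4*, at 0.37 to 0.57 TPM, was the highest of the 13 ligands under a mean of 1 TPM. *Wnt2b*, *Wnt10a*, *Wnt2*, *Wnt6* and *Wnt16* never exceeded 0.35 TPM. *Wnt1*, *Wnt3*, *Wnt3a* and *Wnt9b* never exceeded 0.08 TPM. Ligand genes that lie next to each other differed in level. In the GRCm38 annotation, *Wnt9a* and *Wnt3a* are 16176 bp apart on chromosome 11 and had means of 10.96 and 0.0033 TPM. *Wnt10b* and *Wnt1* are 11707 bp apart on chromosome 15 and had means of 2.05 and 0.04 TPM. The other 2 neighbouring pairs within 50000 bp, *Wnt6* with *Wnt10a* and *Wnt3* with *Wnt9b*, were low for both genes.

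Summed over all 19 ligands, WT libraries were at 28.6, 30.0 and 28.5 TPM and *Ltf*-KO libraries at 30.9, 31.7 and 31.6 TPM. The sums did not overlap between genotypes, and they did not overlap after median-of-ratios scaling either (28.5 to 30.02 against 30.6 to 31.7). The scaling factors were between 0.990 and 1.008, so this scaling could change little. Taken singly, no tested ligand separated the genotypes, where 8.46% of all genes tested did (4.73% with *Ltf*-KO higher). A sum over chosen genes was given no test. Its make-up differed between *Ltf*-KO libraries, as *Wnt5a* held 13.5% and 14.2% of the sum in replicates 1 and 2 and 8.35% in replicate 3, where *Wnt9a* held 44.0%. The Frizzled sums overlapped, at 65.2, 61.3 and 64.7 TPM in WT and 68.03, 67.7 and 62.3 TPM in *Ltf*-KO libraries. The Sfrp sums and the Dickkopf sums overlapped too. So did the sum of all 37 genes, at 103.36 to 105.48 TPM in WT and 103.54 to 111.85 TPM in *Ltf*-KO libraries. In every library the receptors together were 1.97 to 2.28 times the ligands.

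**Figure D3:**
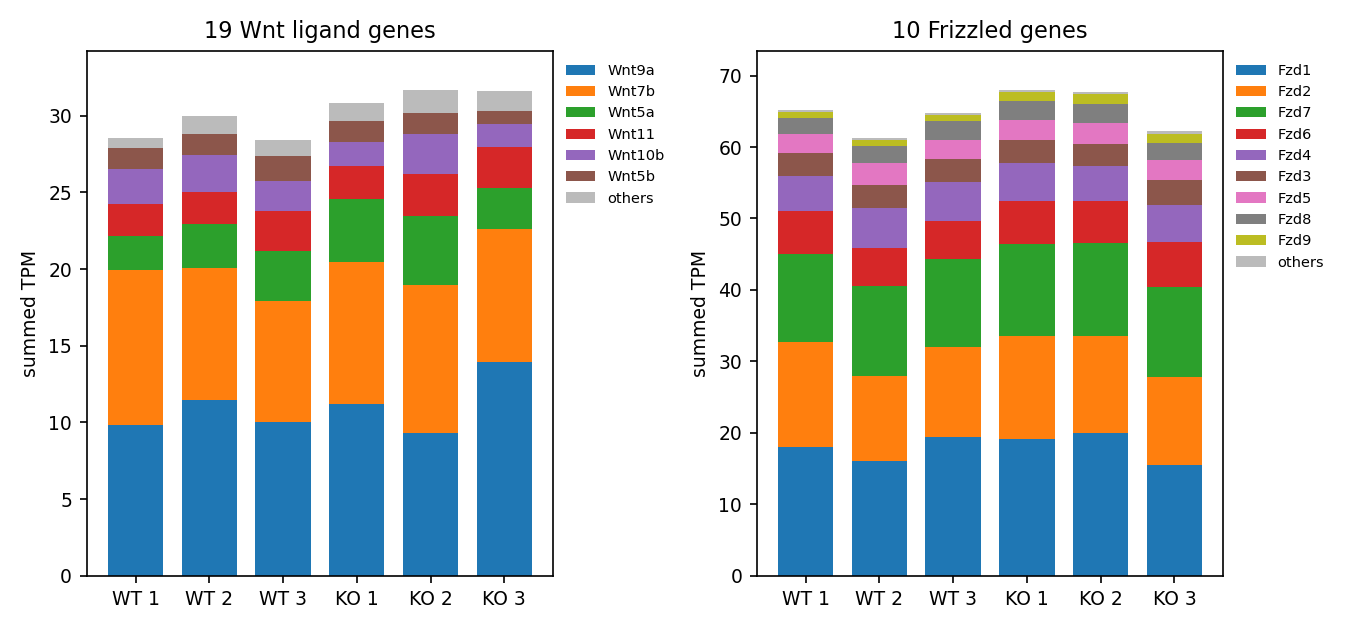
Summed TPM of the 19 Wnt ligand genes (left) and the 10 Frizzled genes (right) in each library (KO, *Ltf*-KO), stacked by gene, with genes under a mean of 1 TPM in grey. The ligand sums are 28.5 to 30.0 TPM in WT and 30.9 to 31.7 TPM in *Ltf*-KO libraries, and the Frizzled sums overlap.

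Of the Sfrp and Dickkopf genes, only *Sfrp2* and *Sfrp1* averaged 1 TPM or more. *Sfrp2* was at 10.16, 10.21 and 9.59 TPM in WT and at 11.02, 9.14 and 8.39 TPM in *Ltf*-KO libraries. The WT libraries lay close together and inside the *Ltf*-KO range. *Sfrp1* was at 1.12, 1.47 and 1.71 TPM in WT and at 1.49, 1.38 and 0.88 TPM in *Ltf*-KO libraries. *Sfrp2* made up 84.9% to 89.5% of the summed Sfrp TPM of a library. *Sfrp4* and *Sfrp5* were at or under 0.22 TPM. Of the Dickkopf genes, *Dkk3*, a divergent member, was at 0.17 to 0.31 TPM, *Dkk2* at 0.03 to 0.34 TPM, *Dkk1* at or under 0.11 TPM and *Dkk4* at 0. *Sfrp1* and *Sfrp2* had log2 differences of -0.12 and -0.07, neither with an unadjusted limma p under 0.05.

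Across the family, no member passed the test between *Ltf*-KO and WT SCs. By limma, 0 of the 17 tested genes had an adjusted p under 0.05, as for 0% of all 12956 genes tested, and 0 had an unadjusted p under 0.05, where 3.78% of all genes tested did. Differences were above 0 for 12 of the 17 genes (70.6%) and for 55.7% of all genes tested, and the median was 0.043 against 0.011. The 12 include *Fzd9*, which met the filter only through its *Ltf*-KO libraries, and the count was 10 to 13 with a library left out. With quantile normalization 12 of the 17 genes were again above 0, but with a median of 0.018, and 49.1% of all genes tested were, with a median of -0.002. A p that misses the threshold does not show that the levels are the same. For the better expressed genes the intervals limit the difference, but only between these samples, as they rest on the same spread as the p-values. For *Fzd7* the log2 difference was 0.039, with a 95% confidence interval from -0.085 to 0.16. For *Fzd1* and *Fzd2* it was 0.026 (-0.24 to 0.29) and 0.043 (-0.18 to 0.27). *Wnt9a* had an interval from -0.23 to 0.45, *Wnt7b* from -0.18 to 0.28 and *Sfrp2* from -0.31 to 0.17.

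**Figure D4:**
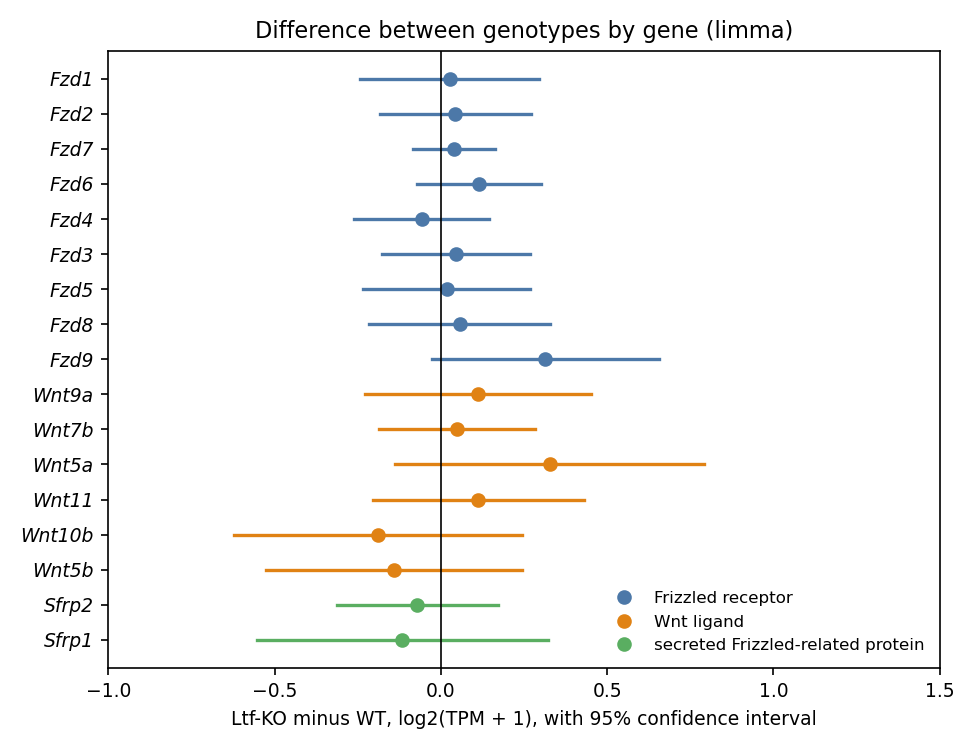
Difference between *Ltf*-KO and WT on the log2(TPM + 1) scale for the 17 tested genes (points) with 95% confidence intervals from limma (lines), grouped and colored by role. All 17 intervals include 0, and those of *Fzd9* (-0.027 to 0.66) and *Wnt5a* (-0.14 to 0.79) extend furthest above it.

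Spread between libraries was set against that of all tested genes of like level. *Fzd7* had a coefficient of variation of 2.16% over the 6 libraries, where the median of the 2338 tested genes between 10 and 20 TPM was 7.91%. *Fzd3* had 4.38%, against a median of 17.2% for the 1791 genes between 2 and 5 TPM. All 4 genes between 5 and 10 TPM (*Sfrp2*, *Wnt7b*, *Fzd6* and *Fzd4*) were under the median of their level, 10.4%. *Wnt9a* at 15.3%, *Wnt5a* at 27.4% and *Wnt10b* at 22.6% were above the medians of theirs. At 10 to 20 TPM, *Fzd7* alone of the 4 members was under the median.

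Annotated features were listed for parts of the family, and the domains and the pathway largely follow from the choice of these gene families. In the deposited annotation, the cysteine-rich Fz domain was listed for 14 genes, all 10 Frizzled and all 4 Sfrp genes, and the netrin-like NTR domain for the 4 Sfrp genes. The Wnt signaling pathway of KEGG was listed for 36 of the 37 genes, with *Dkk3* as the exception. In the GENCODE M21 annotation 6 genes have a main transcript of 1 exon, and all 6 are Frizzled genes (*Fzd1*, *Fzd2*, *Fzd7*, *Fzd8*, *Fzd9* and *Fzd10*). The 3 most abundant receptors were among them.

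Beyond the ligands, receptors and inhibitors, 66 further genes of Wnt signaling were listed by role, of which 41 were tested. By limma, 1 of the 41 had an unadjusted p under 0.05, where 3.78% of all genes tested did (2.01% with *Ltf*-KO higher), and 0 had an adjusted p under 0.05. That gene was *Dvl2*, one of the Dishevelled proteins that relay the signal from Frizzled. It was at 17.72, 17.26 and 19.01 TPM in WT and at 20.79, 21.15 and 18.88 TPM in *Ltf*-KO libraries (log2 difference 0.16, standard error 0.066, adjusted p = 0.999 by limma). *Ltf*-KO replicate 3 lay within the WT range. Without WT replicate 1 or 2, or *Ltf*-KO replicate 1 or 2, and with the replicate number as a block, its unadjusted p was above 0.05. Its homolog *Dvl1* was at 40.8 ± 2.41 TPM in WT and 40.7 ± 1.38 TPM in *Ltf*-KO libraries (SD, n = 3 each).

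RNA for the release of Wnt and for its receptors outside the Frizzled family was detected in all 6 libraries. *Wls*, the Wnt carrier, was at 100.4 ± 3.83 TPM in WT and 103.8 ± 3.99 TPM in *Ltf*-KO libraries, and *Porcn*, the acyltransferase, at 8.64 ± 0.437 and 9.05 ± 0.189 TPM (SD, n = 3 each). *Ptk7* and *Ryk*, receptors of Wnt outside the Frizzled family, were at 58.9 ± 1.82 and 58.04 ± 1.83 TPM in WT and at 61.1 ± 0.85 and 58.3 ± 3.302 TPM in *Ltf*-KO libraries. The log2 difference of *Ryk* was 0.0063, and it changed sign with quantile normalization and with median-of-ratios scaling. *Ptk7* and *Lgr4*, named for this after their values were seen, were the 2 genes of the 41 whose libraries did not overlap between genotypes, where 8.46% of all genes tested did not.

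R-spondins, which raise the amount of Frizzled at the surface through the Lgr receptors, were themselves low, at or under 0.32 TPM for *Rspo1* to *Rspo4*. Their receptor *Lgr4* was at 3.20, 3.64 and 2.99 TPM in WT and at 4.53, 3.71 and 4.09 TPM in *Ltf*-KO libraries (log2 difference 0.26, adjusted p = 0.999 by limma). *Lgr6*, the most abundant of these receptors, was at 13.80, 12.13 and 13.93 TPM in WT and at 16.34, 21.26 and 8.22 TPM in *Ltf*-KO libraries. The *Ltf*-KO libraries thus lay on both sides of WT. Its log2 difference was 0.098, -0.17 without *Ltf*-KO replicate 2 and 0.46 without *Ltf*-KO replicate 3 (unadjusted limma p under 0.05 in the last case only). *Znrf3*, the ligase that removes Frizzled from the surface, was at 5.22 ± 0.166 TPM in WT and 5.06 ± 0.528 TPM in *Ltf*-KO libraries (SD, n = 3 each). Among the other inhibitors, *Kremen1*, a receptor of Dickkopf proteins, was at 82.8 ± 6.7 and 87.1 ± 5.97 TPM, and *Apcdd1*, a membrane inhibitor, at 1.75 ± 0.58 and 1.80 ± 0.103 TPM (WT and *Ltf*-KO, SD, n = 3 each). *Sost*, which encodes the secreted inhibitor sclerostin and is named after its values were seen, was at 0.64, 1.25 and 0.79 TPM in WT and at 1.29, 1.21 and 1.42 TPM in *Ltf*-KO libraries, with overlap (log2 difference 0.30, adjusted p = 0.999 by limma). Of the 10 genes of this list, 7 were under the filter and not tested. Of these, *Frzb* (0.21 to 0.29 TPM in WT, 0.32 to 0.57 TPM in *Ltf*-KO) did not overlap between genotypes. Neither did *Wif1* (0.15 to 0.28 and 0.33 to 0.43 TPM), and the rest overlapped. Untested genes of other roles were apart too. *Ror1* (0.57 to 0.6 and 0.61 to 0.85 TPM) and *Daam2* (0.68 to 0.86 and 0.93 to 0.98 TPM) were higher in *Ltf*-KO. *Celsr1* (0.33 to 0.92 and 0.12 to 0.16 TPM) was lower. All of these untested genes are also named after their values were seen. Without the filter, the libraries of 6.67% of all genes did not overlap.

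Inside the cell, *Ctnnb1*, which encodes β-catenin, was at 440.03 ± 14.5 TPM in WT and 436 ± 6.57 TPM in *Ltf*-KO libraries, and *Csnk1a1*, a kinase that primes β-catenin for degradation, at 206 ± 5.08 and 210.3 ± 5.57 TPM (SD, n = 3 each). Of the nuclear factors, *Pygo2*, a co-activator, was at 45.95 ± 0.401 and 44.3 ± 3.35 TPM in WT and *Ltf*-KO libraries (SD, n = 3 each). *Tcf7l2*, a DNA-binding partner of β-catenin, was at 40.70, 25.81 and 21.05 TPM in WT and at 20.22, 29.74 and 17.13 TPM in *Ltf*-KO libraries. WT replicate 1 stood above all other libraries for this gene, and the log2 difference was -0.35, and -0.094 without it. *Daam1*, a formin of the polarity branch, was at 27.03 ± 1.54 and 27.7 ± 0.503 TPM (SD, n = 3 each).

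Of the 9 feedback and target genes 5 were tested, and 0 had an unadjusted limma p under 0.05. *Axin2*, the most used readout of β-catenin activity, was at 0.22, 0.36 and 0.35 TPM in WT and at 0.17, 0.14 and 0.26 TPM in *Ltf*-KO libraries, under the filter and therefore not tested, with overlapping libraries. *Ccnd1*, which encodes cyclin D1 and responds to many signals besides Wnt, was at 324 ± 6.16 TPM in WT and 325 ± 3.03 TPM in *Ltf*-KO libraries, and *Fosl1*, an AP-1 factor, at 119 ± 9.59 and 120.7 ± 9.81 TPM (SD, n = 3 each). RNA levels do not measure the secretion of Wnt proteins or the activity of β-catenin.

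**Figure D5:**
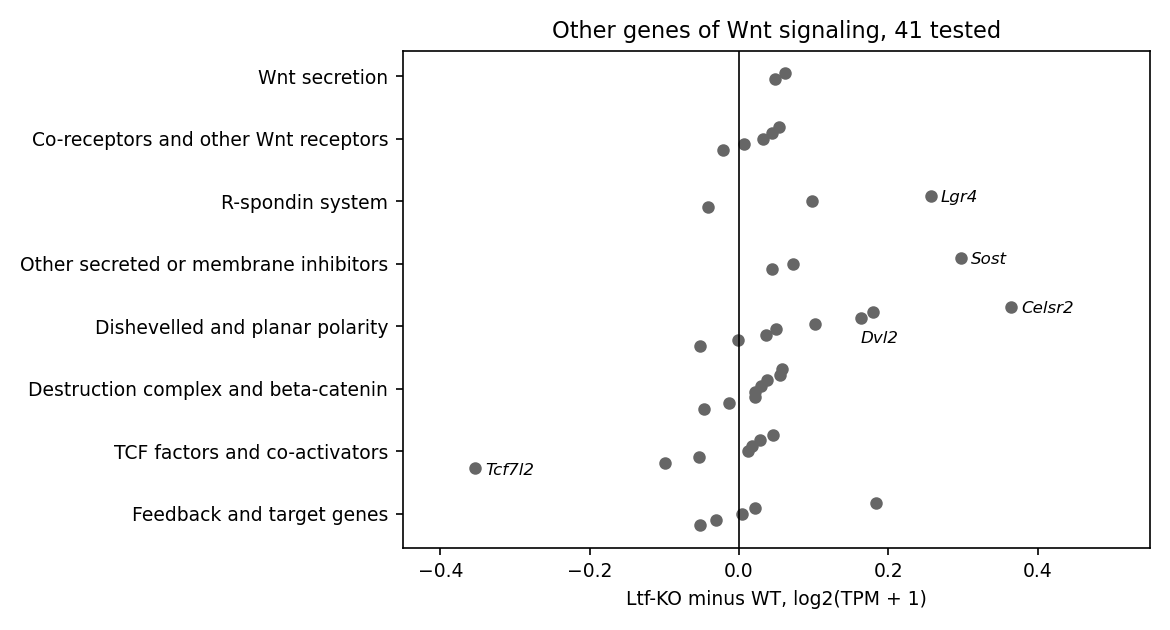
Difference between *Ltf*-KO and WT on the log2(TPM + 1) scale for the 41 tested genes of 8 other roles in Wnt signaling, 1 point per gene, with *Dvl2* and the genes with the widest differences named. Most points lie within 0.1 of 0, and the named genes other than *Dvl2* had an unadjusted limma p above 0.05.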

How the data were processed

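SCs of 3 WT and 3 *Ltf*-KO samples were profiled by RNA sequencing, and samples were assigned by their titles. The authors deposited 1 table with TPM values to 2 decimals for 55416 genes, with functional annotation. TPM was inferred from the values. Extraction and normalization followed the sequencing provider's protocol. The submitters' processing notes name GRCm39 as build, and the aligner, counter and annotation release are not given in the sources used here. TPM keeps no depth, so precision was judged from the spread between libraries, and 0 further columns held sample values.

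Members were matched by gene name (Wnt, Fzd, Sfrp or Dkk with a number). Members, gene lists and the rule for named genes (all members, the 2 most abundant genes of each role, genes at an unadjusted p under 0.05, *Axin2*, *Ltf* and markers) were chosen with earlier results of these data known. *Ltf*-KO was compared with WT by limma 3.58.1 (R 4.3.3; lmFit, eBayes with trend, two-sided) after log2(TPM + 1) transformation, for 12956 genes averaging 1 TPM or more, with Benjamini-Hochberg adjustment over all of them and a threshold of 0.05. The fit was tested on simulated data. Alternatives were a pseudocount of 0.1, no filter, quantile normalization, median-of-ratios scaling, the replicate number as a block, and each library left out. Coordinates are from GENCODE M21 (GRCm38), matched by gene identifier, and upstream sequences are from RefSeq (GRCm38.p6), matched by symbol. Figures were drawn with matplotlib 3.10.9.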

Additional observations from a re-analysis of the deposited data

How the results depend on the processing

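No member had an adjusted p under 0.05 under any of the alternatives run. The count of members at an unadjusted p under 0.05 was 0, ranged from 0 to 1 with a library left out (*Wnt10b* without *Ltf*-KO replicate 2, *Wnt5a* without *Ltf*-KO replicate 3), and was 3 of 34 without the filter (*Fzd9*, *Wnt2b* and *Wnt7a*, the last 2 never above 0.35 TPM), where 3.35% of 26553 genes did. The same 3 genes were then the members whose libraries did not overlap (6.67% of all genes). With quantile normalization there were 2 (*Fzd9* and *Wnt5b*; 8.21% of all genes). The libraries of *Fzd9* stayed apart with quantile normalization and median-of-ratios scaling, the only alternatives that could change their order. Its log2 difference was 0.29 to 0.55 over all 11 alternatives, with an unadjusted p under 0.05 only without the filter. Members at a mean of at least 0.5 TPM numbered 17 and at 2 TPM 14.

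Of all genes tested, 0 passed after adjustment and 490 before it, ranging from 0 to 6 and from 456 to 611 with a library left out. Without the filter the second count was 890, as more genes were tested, and with the replicate block it was 380. The share lower in *Ltf*-KO was 230 of 490, and 305 of 508 with quantile normalization. Deviations of same-numbered libraries correlated at -0.041, -0.058 and -0.088, which gives no sign of pairing, and no library correlated best with its own number.

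With a library left out, log2 differences changed sign for 7 of the 17 members: *Fzd1* (-0.043 to 0.13), *Fzd2* (-0.018 to 0.12), *Wnt9a* (-0.025 to 0.24), *Sfrp2* (-0.17 to 0.0075), *Wnt7b* (-0.021 to 0.14), *Fzd5* (-0.015 to 0.075) and *Sfrp1* (-0.21 to 0.0079). They did so for 9 of 17 other pathway genes: *Ryk* (-0.021 to 0.053), *Lgr6* (-0.17 to 0.46), *Apcdd1* (-0.087 to 0.21), *Dvl1* (-0.038 to 0.043), *Daam1* (-0.0077 to 0.071), *Ctnnb1* (-0.041 to 0.00196), *Pygo2* (-0.088 to 0.0095), *Ccnd1* (-0.0077 to 0.019) and *Fosl1* (-0.045 to 0.074). *Ryk* was -0.00296 with quantile normalization and -0.0039 with median-of-ratios scaling, where *Ccnd1* was -0.0057. The cause was not tested.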
